A study of Homo sapiens with 6 samples.

Results

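Genes of the proteasome were compared between KMS-27 cells, a human multiple myeloma line derived from bone marrow per the labels, that received a control siRNA (siControl, 3 libraries) and the same cells with Che-1 silenced (siChe-1, 3 libraries). Che-1 is the protein encoded by AATF, and it binds RNA polymerase II. Each library was made from 500 ng of total RNA after depletion of ribosomal RNA. All libraries come from this 1 line, no other treatment is named, and the sources used here do not give the dose of siRNA, the time after transfection or the number of cultures. The members were taken by symbol: PSM, a letter from A to G, then a number. This gave 48 genes of the 16444 in the table normalised to spike-ins and the 12075 in the table of FPKM (fragments per kilobase of transcript, adjusted for library size). PSMC3IP, a recombination factor that shares only the prefix, was set apart, which left 47 members. All 47 were in the spike-in table and 44 were in the FPKM table, where PSMA8, PSMB8 and PSMB9 were not listed.

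The proteasome is the protease that degrades proteins tagged with ubiquitin. Its 20S core is a barrel of stacked rings: outer rings of alpha subunits (PSMA genes) form the gate, and inner rings of beta subunits (PSMB genes) hold the active sites. The 19S particle caps the barrel; its base of ATPases (PSMC genes) unfolds the substrate, and its lid (PSMD genes) removes the ubiquitin. In cells exposed to interferon, PSMB8, PSMB9 and PSMB10 replace the catalytic subunits PSMB5, PSMB6 and PSMB7 to form the immunoproteasome. Plasma cells and myeloma cells make large amounts of immunoglobulin and are sensitive to drugs that block PSMB5.

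Sequences just before the start site are shown for the genes that were called lower (PSMD5, PSMG1, PSMB3) or higher (PSMD3, PSME4) in siChe-1 relative to other genes and that hold the motif TGACNNNGC there, and for PSMB10, the immunoproteasome subunit with a measurable level. PSMA6, PSMD6, PSMD13 and PSME3 were also called lower and do not hold TGACNNNGC in the window searched. They are RefSeq promoter sequences of build GRCh38.p14, 5′ to 3′ in the direction of the gene. The capitals mark this motif, the core of the element read by the factor NRF1 that drives proteasome genes, or in PSMB10 GAAANNGAA, a core of the interferon-stimulated response element. Where the motif lies in an annotated exon of a protein-coding gene (the gene itself, or ACYP2 next to PSME4), only 10 bases on each side are shown. The PSMD5 window overlaps the neighbouring pseudogene CUTALP.

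PSMD5, chr9:120842985-120843172, minus strand: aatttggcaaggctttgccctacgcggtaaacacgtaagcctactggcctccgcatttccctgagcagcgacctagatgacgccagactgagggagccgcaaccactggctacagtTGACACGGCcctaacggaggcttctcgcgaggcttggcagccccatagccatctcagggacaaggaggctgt
PSMG1, chr21:39183616-39183644, minus strand: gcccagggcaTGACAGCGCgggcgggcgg
PSMB3, chr17:38752491-38752735, plus strand: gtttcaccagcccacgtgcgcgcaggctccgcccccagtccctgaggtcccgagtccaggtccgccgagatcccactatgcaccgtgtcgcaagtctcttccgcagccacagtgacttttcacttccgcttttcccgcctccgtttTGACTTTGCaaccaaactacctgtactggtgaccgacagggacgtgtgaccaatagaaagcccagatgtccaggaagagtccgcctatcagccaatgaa
PSMD3, chr17:39980557-39980796, plus strand: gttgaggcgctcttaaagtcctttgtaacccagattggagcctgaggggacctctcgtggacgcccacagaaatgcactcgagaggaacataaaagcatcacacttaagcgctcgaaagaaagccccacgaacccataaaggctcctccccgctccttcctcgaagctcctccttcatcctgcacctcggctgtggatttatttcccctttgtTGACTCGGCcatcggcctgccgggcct
PSME4, chr2:53971009-53971037, minus strand: cccggcggctGCAGCGTCAccagcagagc
PSMB10, chr16:67936853-67936881, minus strand: gggtaaaggcGAAAGCGAAagcaggaagt

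The capitals begin 134 bases before the start site in PSMD5, 183 in PSMG1, 104 in PSMB3, 37 in PSMD3, 34 in PSME4 (where the motif is on the opposite strand) and 21 in PSMB10. The table held promoters for 41 of the 47 members, 50 promoters in all. In the 250 bases before the start, TGACNNNGC on either strand was present in 13 of these 50 (26.0%), against 10.9% of all 35116 promoters in the table. The looser TGANNNNGC, which includes every TGACNNNGC, was in 28 of the 50 (56.0%) against 35.2% of all. CCAAT was in 18 (36.0%) against 32.0%, GAAANNGAA in 5 (10%) against 6.88%, and TTCNNNGAA, a core of the gamma-activated site, in 7 (14.0%) against 6.57%. Among genes with a promoter in the table, TGACNNNGC was present in 3 of the 7 called lower, in 2 of 2 called higher and in 7 of 29 tested and not called. The motif was thus found on both sides of the change. A match describes the letters and not a bound site, and some members have more than 1 promoter in the table.

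Che-1 silencing was visible in every siChe-1 library. AATF stood at 93.9, 88.8 and 112 FPKM in siControl and at 14.9, 14.8 and 17.2 FPKM in siChe-1. The recovered gene reads of the 5 libraries in the spike-in table were between 19598691 and 22292142 per library, and that table holds no value of siChe-1 replicate 3. For each spike-in read, the siControl libraries held 39.7, 57.9 and 59.3 gene reads and the siChe-1 libraries 23.5 and 19.9. Every library started from the same 500 ng of total RNA, so values against the spike-ins are not read here as amounts per cell. Plasma cell markers summed to 7310 to 10379 FPKM in siControl and 9062 to 12734 FPKM in siChe-1, while 1 of 4 T cell markers and 1 of 4 erythroid markers were in the FPKM table, at no more than 0.764 and 0.652 FPKM in any library. None of the 4 monocyte and 4 fibroblast markers was in the FPKM table. FPKM values are listed as 3 per group without replicate numbers and are given here as positions a, b and c of each group's list. In these bulk samples, fewer cells of a type and less RNA per cell cannot be told apart.

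Relative to other genes, 8 of the 44 proteasome genes fell and 2 rose after Che-1 silencing, and 34 were not called. These calls are from limma on log2(FPKM + 1) of the 6 libraries, rescaled to a common median of ratios, at a Benjamini-Hochberg adjusted p under 0.05 over the 6285 genes whose FPKM averaged at least 10; all 44 members passed this filter. Of all genes tested, 15.1% were called lower and 15.1% higher, so that the share of members called lower (8 of 44) was near the background and the share called higher (2 of 44) was below it. The members' values leaned to 1 side: 38 of 44 had a negative log2 difference and 6 a positive one, against 3183 and 3102 of all genes. The members' median log2 difference was -0.16, against -0.00 for all genes. Their FPKM summed to 4584, 4729 and 5024 in siControl and to 4251, 4278 and 4218 in siChe-1, so that the groups did not overlap. The summed level was 4779 ± 224 against 4249 ± 30.4 (SD, n = 3), 11.1% lower in siChe-1, while the sum over all genes tested was 6.43% lower. That sum did not overlap either, at 532999 to 547844 FPKM in siControl and 496820 to 519655 FPKM in siChe-1. With the FPKM scaled as deposited, 10 members were called lower and 1 higher, where 1279 of the 6285 genes were lower and 592 higher. With upper-quartile scaling 5 members were lower and 2 higher, where 713 of the genes were lower and 1221 higher. On the whole reads recovered from the spike-in table, edgeR with TMM scaling called 13 members lower and 1 higher. Of all genes it called 15.4% lower and 14.4% higher. Among the 6122 of these genes that also averaged at least 10 FPKM, as the 44 members do, it called 1333 lower and 632 higher. DESeq2 called 17 members lower and 1 higher, where 1976 of 12419 genes were lower and 1598 higher. Leaving out 1 library from limma gave 3 to 6 lower and 1 to 3 higher, with the fewest called lower without siControl list position c or siChe-1 list position c. Over all genes, these fits called 500 to 890 lower and 484 to 853 higher.

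**Figure D1:**
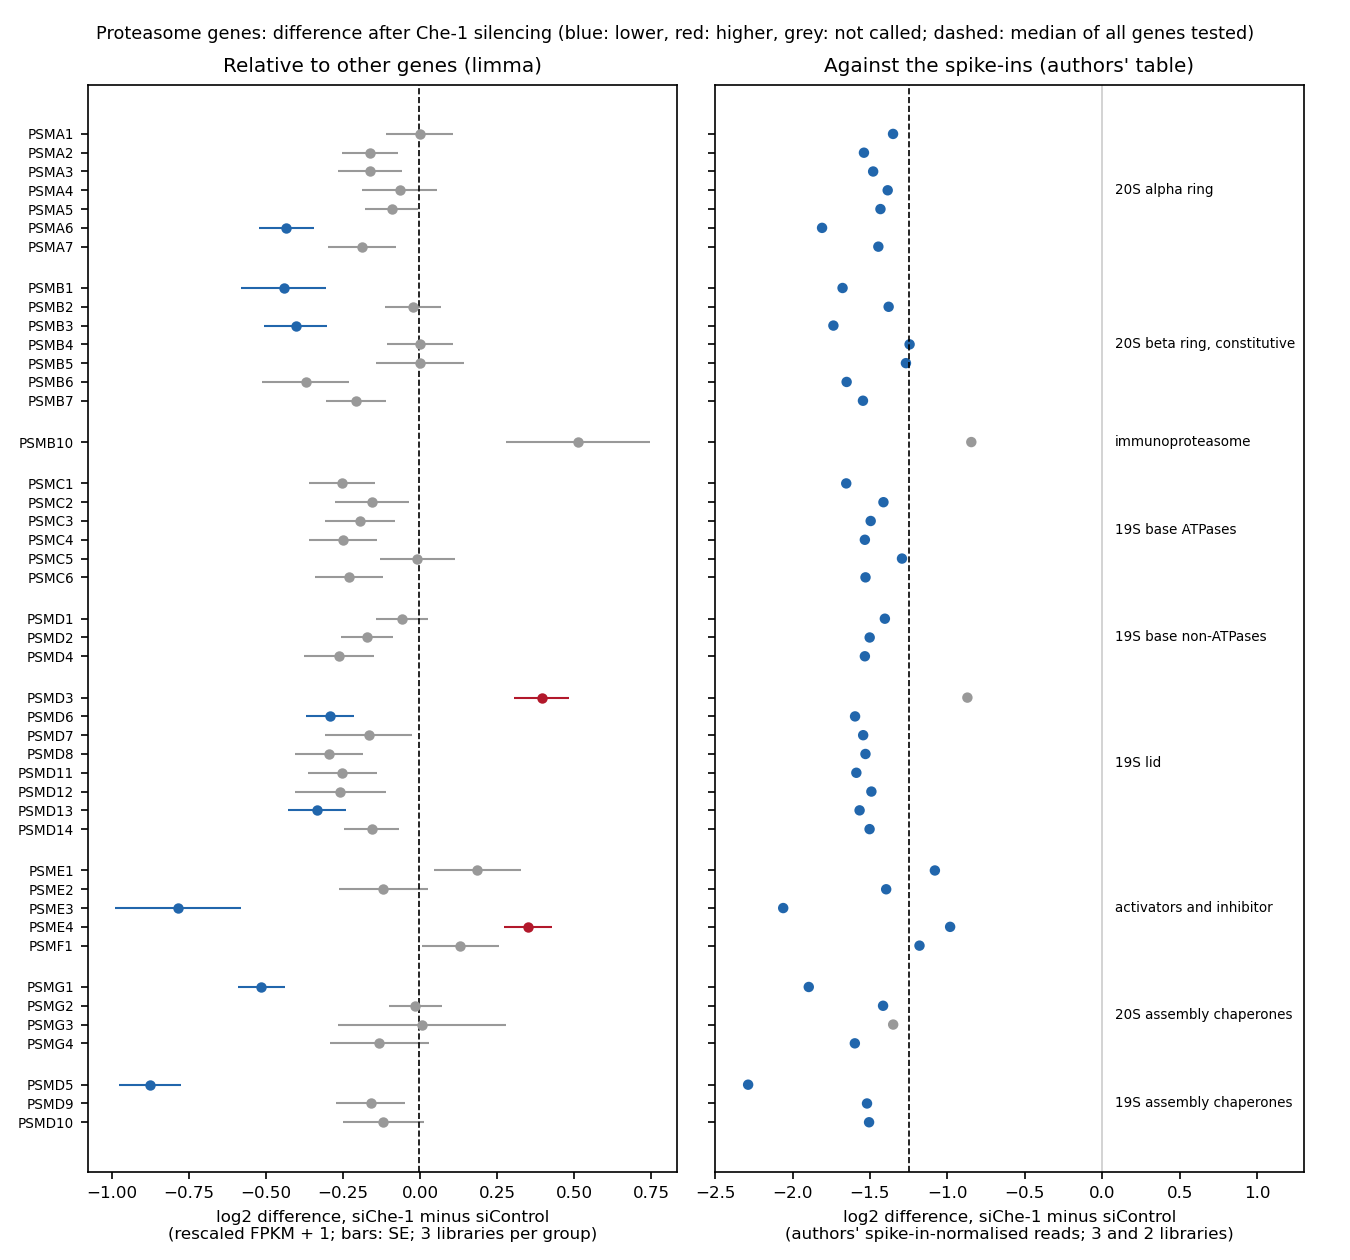
Log2 difference between siChe-1 and siControl for the 44 proteasome genes in the FPKM table, grouped by class. The left panel shows limma values relative to other genes with their SE (3 libraries per group), and the right panel the authors' spike-in values (3 and 2 libraries); blue marks genes called lower, red higher and grey not called, and the dashed lines are the medians of all genes tested, -0.00 and -1.25. Most members lie left of both dashed lines, with PSMD5 and PSME3 farthest left and PSMB10, PSMD3 and PSME4 on the right.

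Among the alpha subunits of the 20S core, PSMA6 fell and the other 6 measured genes were not called. PSMA6 (hg19 chromosome 14, 35761574 to 35786682, plus strand) stood at 115, 113 and 131 FPKM in siControl and at 88.9, 85.8 and 90.1 FPKM in siChe-1. Every siChe-1 value lay below every siControl value, and the mean was 26.4% lower (120 ± 9.44 against 88.2 ± 2.22, SD, n = 3). Its log2 difference was -0.44 ± 0.09 (SE, limma adjusted p 0.0108). PSMA4, the most abundant alpha gene, was nearly level, at 322, 268 and 321 FPKM in siControl and 321, 263 and 285 FPKM in siChe-1 (log2 difference -0.07 ± 0.12, limma adjusted p 0.719). PSMA1 had the smallest difference of the ring, with 145, 184 and 164 FPKM against 160, 168 and 161 FPKM. The log2 differences of the 7 genes were all negative, from -0.44 to -0.00, with a median of -0.16. PSMA8, the alpha subunit of the testis, had 2, 4 and 0 reads in siControl and 1 and 3 in siChe-1, too few for any comparison.

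Of the 7 constitutive beta genes, PSMB1 and PSMB3 fell and the others were not called. Both encode beta subunits without an active site. PSMB3 (chromosome 17, 36909002 to 36920478, plus strand) was the most abundant of the ring, at 303, 325 and 330 FPKM in siControl and 218, 257 and 250 FPKM in siChe-1. It was 24.4% lower with no overlap (log2 difference -0.40 ± 0.10, limma adjusted p 0.0224). PSMB1 (chromosome 6, 170844204 to 170862417, minus strand) stood at 160, 141 and 190 FPKM in siControl and at 125, 105 and 130 FPKM in siChe-1. Its groups did not overlap either, its spread was wide (164 ± 24.7 against 120 ± 13.4, SD, n = 3), and the log2 difference of -0.44 ± 0.14 had a limma adjusted p of 0.0447. PSMB4, a structural beta subunit, was at 248, 282 and 291 FPKM against 265, 296 and 258 FPKM, a log2 difference of -0.00 ± 0.11. Over the ring the differences ran from -0.44 to -0.00 with a median of -0.21.

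The catalytic genes of the constitutive core were not called. PSMB5, which carries the chymotrypsin-like site that bortezomib binds, was at 48.8, 67.8 and 54.4 FPKM in siControl and at 54.1, 65.1 and 50.9 FPKM in siChe-1. Its groups overlapped throughout (log2 difference -0.00 ± 0.14, limma adjusted p 0.995). PSMB6, with the caspase-like site, was at 76.0, 102 and 98.3 FPKM in siControl and at 61.3, 77.7 and 73.5 FPKM in siChe-1, and 1 siChe-1 value lay above the lowest siControl value. Its log2 difference of -0.37 ± 0.14 missed the threshold (limma adjusted p 0.0844); on the recovered reads, edgeR with TMM called it lower (-0.39, adjusted p 0.0284). PSMB7, with the trypsin-like site, was at 81.2, 95.0 and 89.3 FPKM in siControl and at 70.7, 81.4 and 77.1 FPKM in siChe-1. Its log2 difference was -0.21 ± 0.10 (limma adjusted p 0.142), and edgeR with TMM called it lower on the recovered reads (-0.31, adjusted p 0.0352).

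PSMB10, the immunoproteasome subunit that takes the place of PSMB7, had the largest positive difference of all members and was not called. On chromosome 16 (67968407 to 67970780, minus strand), it was at 11.1, 19.4 and 13.9 FPKM in siControl and at 15.6, 27.4 and 21.6 FPKM in siChe-1. The means were 14.8 ± 4.19 and 21.5 ± 5.88 FPKM (SD, n = 3), 1.46-fold apart, but the groups overlapped, and the value at list position b was the highest in each group. The log2 difference was 0.51 ± 0.23 (limma adjusted p 0.138). Without siControl list position b it was 0.71 and passed (limma adjusted p 0.0359). Under the other 17 of 18 alternatives PSMB10 was not called. Its difference there ran from 0.33 without siChe-1 list position b (limma adjusted p 0.298) to 0.72 without siChe-1 list position a (limma adjusted p 0.0633). On the recovered reads, edgeR with TMM gave 0.43 (adjusted p 0.0598). In the authors' deposited table of transcripts the PSMB10 transcript had a log2 ratio of 0.45 and a q of 0.0107. PSMB10 as a percentage of PSMB7, a ratio within each library that needs no scaling between libraries, came to 13.7, 20.4 and 15.6% with siControl and to 22.1, 33.7 and 28.0% with siChe-1. These values did not overlap (16.6 ± 3.44 against 27.9 ± 5.76%, SD, n = 3; log2 difference 0.73 on FPKM + 1), and the two-sided exact permutation p was 0.1, the smallest that 3 against 3 libraries allow. Of 3 planned pairs, only this 1 could be computed from FPKM.

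**Figure D2:**
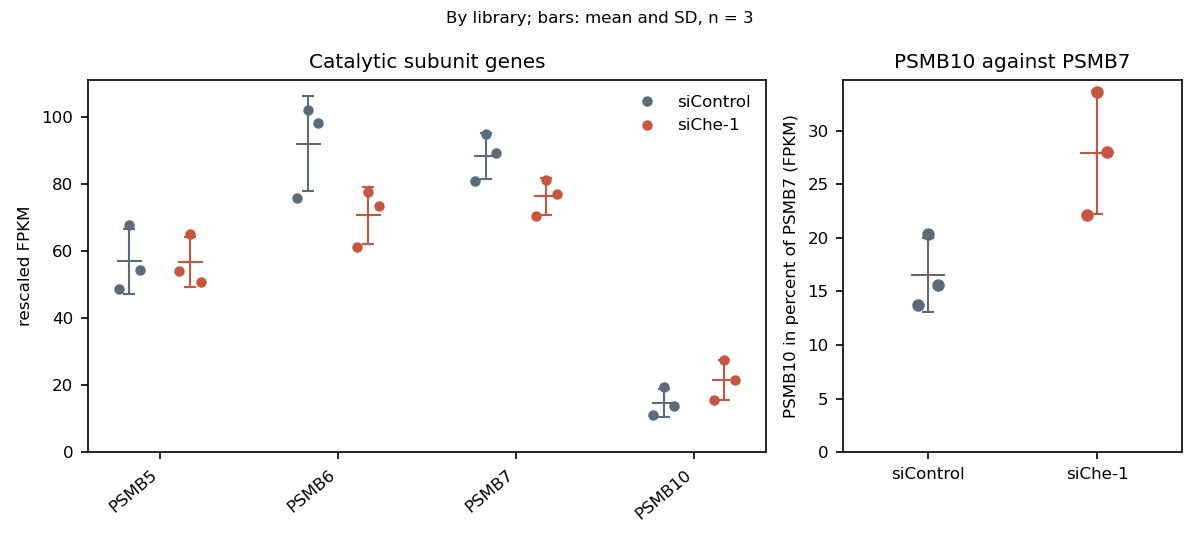
Rescaled FPKM of the constitutive catalytic genes PSMB5, PSMB6 and PSMB7 and of PSMB10 by library (left), and PSMB10 in percent of PSMB7 within each library (right). Points are libraries at list positions a, b and c from left to right, and bars are the mean and SD of 3 libraries; all 3 siChe-1 ratios (22.1 to 33.7%) lie above the siControl ratios (13.7 to 20.4%), while the 2 groups overlap for PSMB10 itself.

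PSMB8 and PSMB9, the other immunoproteasome genes, could not be compared. PSMB8 had 0, 3 and 24 reads in the siControl libraries and 8 and 8 in siChe-1, and PSMB9 had 0, 1 and 0 reads in siControl and 7 and 4 in siChe-1. Both lie in the MHC region of chromosome 6, where genes that every cell uses were also near 0 in the spike-in table: TUBB, a tubulin, had a mean of 6.41 normalised reads, FLOT1 had 5.35, and DDX39B was listed at 0. The FPKM table places 23 transcripts on alternative haplotype sequences of chromosome 6. The listed values of PSMB8 and PSMB9 are therefore not read as their expression.

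In the base of the 19S particle, none of the 6 ATPase genes and none of the 3 non-ATPase genes was called by limma, although all 9 log2 differences were negative. At an unadjusted p under 0.05, 1 ATPase gene was lower, where 1347 of all 6285 genes were. On the recovered reads, edgeR with TMM called 1 ATPase gene (PSMC1) and 1 non-ATPase gene (PSMD4) lower. It called 1333 of the 6122 genes with at least 10 FPKM lower there. PSMC2, the most abundant ATPase, was at 216, 187 and 236 FPKM in siControl and at 196, 172 and 204 FPKM in siChe-1 (log2 difference -0.16 ± 0.12, limma adjusted p 0.363). PSMC1 had the largest difference of the ATPases, with 109, 100 and 121 FPKM against 90.6, 85.5 and 101 FPKM. Its limma difference was -0.25 ± 0.11 (adjusted p 0.111), and edgeR with TMM gave -0.42 (adjusted p 0.00988). PSMC5 had the smallest, at 72.0, 77.1 and 96.1 FPKM against 75.7, 85.7 and 80.7 FPKM. PSMD4, a ubiquitin receptor, was at 132, 145 and 162 FPKM in siControl and 113, 135 and 117 FPKM in siChe-1 (limma -0.26 ± 0.11, adjusted p 0.120; edgeR with TMM -0.29, adjusted p 0.0442). PSMD1, a scaffold of the base, was at 114, 105 and 114 FPKM against 108, 102 and 109 FPKM (log2 difference -0.06 ± 0.08).

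The 19S lid held members that moved in opposite directions: PSMD6 and PSMD13 fell, PSMD3 rose, and 5 genes were not called. All 3 encode structural subunits of the lid. PSMD13 (chromosome 11, 236808 to 252984, plus strand) was at 65.5, 73.1 and 70.3 FPKM in siControl and at 51.4, 60.9 and 53.1 FPKM in siChe-1, 20.8% lower with no overlap (log2 difference -0.33 ± 0.09, limma adjusted p 0.0329). PSMD6 (chromosome 3, 63989698 to 64009120, minus strand) was at 42.8, 43.4 and 44.5 FPKM in siControl and at 37.4, 36.4 and 32.6 FPKM in siChe-1, 18.6% lower with no overlap (log2 difference -0.29 ± 0.08, limma adjusted p 0.0278). An antisense gene to PSMD6 is annotated, and the sources used here do not say whether reads were counted by strand.

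PSMD3 (chromosome 17, 38137060 to 38154212, plus strand) was at 80.9, 89.6 and 93.0 FPKM in siControl and at 113, 120 and 114 FPKM in siChe-1. All siChe-1 values lay above all siControl values (87.8 ± 6.21 against 116 ± 3.79, SD, n = 3), a log2 difference of 0.39 ± 0.09 (limma adjusted p 0.0147). With the FPKM scaled as deposited, the difference was 0.30 (limma adjusted p 0.0531). PSMD7, the most abundant lid gene, was at 180, 162 and 217 FPKM against 164, 145 and 188 FPKM. On the recovered reads, edgeR with TMM called PSMD7 (-0.29, adjusted p 0.0471) and PSMD11 (-0.36, adjusted p 0.0293) lower and did not call PSMD13 (-0.31, adjusted p 0.0515). The calls of PSMD6 and PSMD3 were the same there. PSMD14, the deubiquitinase of the lid, was at 40.3, 44.7 and 46.4 FPKM in siControl and at 37.2, 42.4 and 37.9 FPKM in siChe-1, with overlap and a log2 difference of -0.16 ± 0.09 (limma adjusted p 0.222), the smallest in the lid.

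Among the genes that act on the open core, the activator PSME3 fell, the activator PSME4 rose, and PSME1, PSME2 and the inhibitor PSMF1 were not called. PSME3 forms PA28-gamma, a nuclear activator that works without ubiquitin. On chromosome 17 (40985423 to 40995777, plus strand), it stood at 80.5, 119 and 74.8 FPKM in siControl and at 50.9, 63.4 and 42.4 FPKM in siChe-1. The groups did not overlap although 1 siControl value was well above the other 2 (91.6 ± 24.3 against 52.2 ± 10.6, SD, n = 3), and the mean was 42.9% lower. The log2 difference was -0.79 ± 0.20 (limma adjusted p 0.0248). The call was lost without siChe-1 list position a (-0.78, limma adjusted p 0.0678) or c (-0.64, limma adjusted p 0.0912).

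PSME4 encodes PA200, a nuclear activator linked to the degradation of acetylated histones. On chromosome 2 (54091204 to 54197977, minus strand), it was at 25.7, 24.7 and 22.6 FPKM in siControl and at 32.9, 30.6 and 30.3 FPKM in siChe-1. It was 1.28-fold higher with no overlap (24.3 ± 1.62 against 31.3 ± 1.44, SD, n = 3; log2 difference 0.35 ± 0.08, limma adjusted p 0.0142). On the recovered reads, edgeR with TMM gave 0.26 and did not call it (adjusted p 0.0692). PSME1 and PSME2 form the interferon-inducible activator PA28-alpha-beta. PSME1 was at 160, 152 and 216 FPKM against 204, 189 and 200 FPKM (log2 difference 0.19 ± 0.14, limma adjusted p 0.356). PSME2 was at 136, 171 and 134 FPKM against 128, 158 and 119 FPKM (log2 difference -0.12 ± 0.14), so that neither partner passed the test.

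The largest differences among the assembly factors were falls. PSMD5, a chaperone that holds ATPases of the base during assembly of the 19S particle and leaves the finished complex, had the largest difference of all 44 members. On chromosome 9 (123578332 to 123605206, minus strand), it was at 12.8, 14.5 and 13.2 FPKM in siControl and at 6.95, 6.65 and 7.04 FPKM in siChe-1. The siChe-1 values were tightly grouped and far below the siControl values (13.5 ± 0.878 against 6.88 ± 0.206, SD, n = 3), and the mean was 49.0% lower. The log2 difference was -0.88 ± 0.10 (limma adjusted p 0.00140). PSMD5 averaged 10.2 FPKM over all libraries and passed the minimum of 10 only through its siControl values. On the recovered reads, which are not filtered by FPKM, edgeR with TMM gave -1.04 (adjusted p 4.9e-05). The other 19S chaperones were not called: PSMD10, also called gankyrin, was at 63.0, 49.3 and 64.1 FPKM against 57.3, 46.7 and 57.7 FPKM (log2 difference -0.12 ± 0.13).

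PSMG1 is the partner of PSMG2 in the chaperone pair that guides the alpha ring, and only PSMG1 was called. On chromosome 21 (40547384 to 40555440, minus strand), it stood at 85.0, 88.0 and 92.0 FPKM in siControl and at 63.0, 60.4 and 61.0 FPKM in siChe-1, 30.4% lower with no overlap (88.3 ± 3.52 against 61.5 ± 1.36, SD, n = 3). The log2 difference was -0.52 ± 0.08 (limma adjusted p 0.00343). PSMG2 was at 63.6, 72.6 and 73.7 FPKM against 68.3, 68.5 and 70.5 FPKM (log2 difference -0.02 ± 0.09, limma adjusted p 0.911). The difference between the changes of the 2 partners was not tested. PSMG3 was low and spread widely, at 6.69, 14.1 and 10.4 FPKM against 7.56, 13.4 and 9.91 FPKM. POMP, the chaperone of beta ring assembly that lies outside the name rule, was at 84.6, 89.1 and 74.2 FPKM against 89.9, 81.9 and 72.3 FPKM (log2 difference -0.02 ± 0.11, limma adjusted p 0.900).

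**Figure D3:**
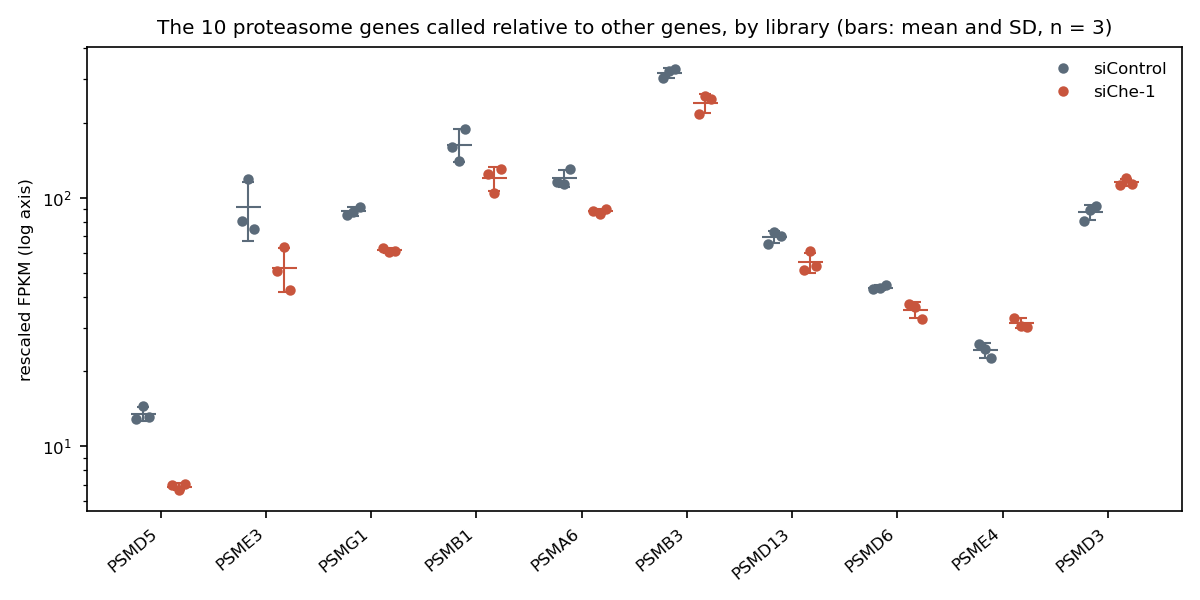
Rescaled FPKM (log axis) by library for the 10 proteasome genes called relative to other genes, ordered by log2 difference. Points are libraries, and bars are the mean and SD of 3 libraries; in each of the 10 genes the siControl and siChe-1 values do not overlap, from PSMD5 (12.8 to 14.5 against 6.65 to 7.04) to PSMD3 (80.9 to 93.0 against 113 to 120).

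PSMG1 and PSMA6 kept their call under all 18 alternatives tried on this scale, which change the scaling, filter, test or data or leave out a library. PSMD5 kept it under the 15 in which it was tested, since its mean FPKM fell under the minimum of 10 when a siControl library was left out. The other 7 called members each lost it under at least 1, PSMB1 most often (7 of 18). In 12 of 44 members every siChe-1 value lay below every siControl value, and in 2 every value lay above, against 22.8% and 22.5% of all genes. The 4 such members that were not called, all lower, were PSMA2, PSMD2, PSMD8 and PSMD11, named after their values were seen. Members took 0.765, 0.809 and 0.795% of the gene reads in siControl and 0.720 and 0.728% of those in siChe-1, and these shares did not overlap either.

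RNA levels of the subunit genes were far from equal although each subunit of a ring is present once in it. Compared as FPKM, which is per length, the most abundant alpha gene (PSMA4, mean 297) was 17.5-fold above the least abundant (PSMA5, 17.0), and the most abundant constitutive beta gene (PSMB3, 280) was 4.93-fold above the least abundant (PSMB5, 56.9). In reads normalised to the spike-ins, which are not adjusted for length, PSMA4 averaged 8018 and PSMA5 1491, a smaller gap than in FPKM. PSMB10 had a mean of 18.2 FPKM. In PSMA5 the values were 17.3, 18.5 and 16.8 FPKM in siControl and 17.8, 16.3 and 15.1 FPKM in siChe-1, so the low level was shared by all 6 libraries. Pseudogenes are annotated for 12 members (32 pseudogenes in all, 13 of them of PSMC1 and 4 of PSMA6), and the sources used here do not say how reads shared with such copies were counted.

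**Figure D4:**
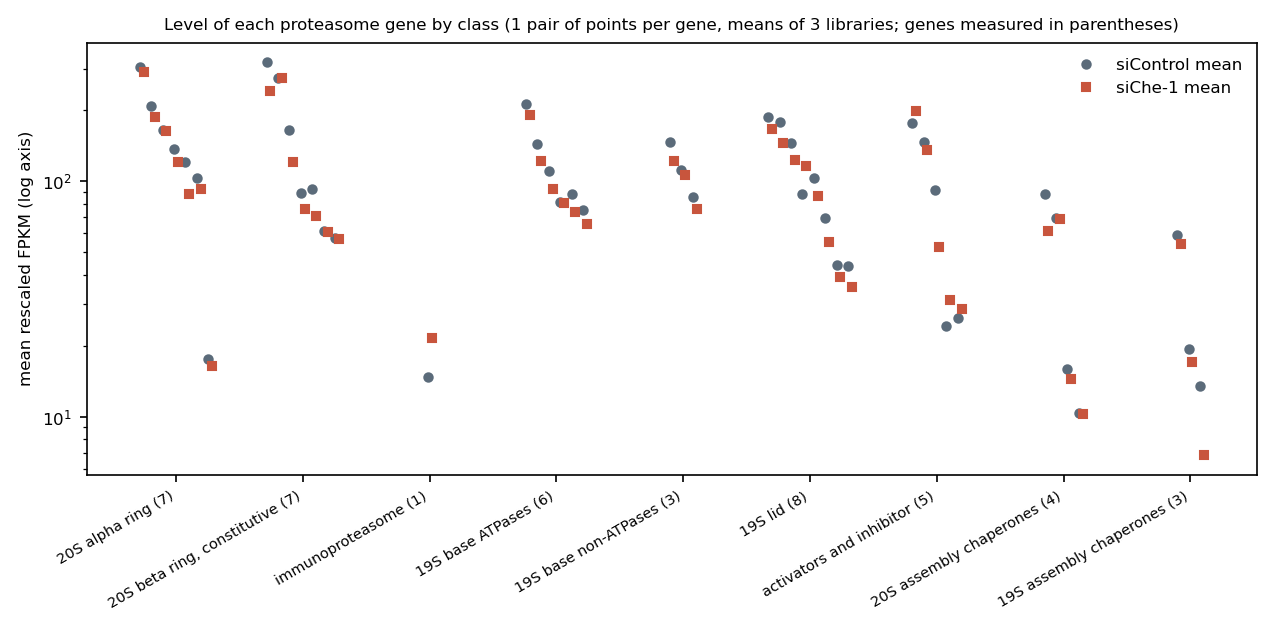
Mean rescaled FPKM (log axis) of each of the 44 measured proteasome genes in siControl (circles) and siChe-1 (squares), by class, with the number of genes measured in parentheses. Within the alpha ring PSMA5 (17.0) stands far below PSMA4 (297); the pairs of points lie close together for most genes and separate most for PSMD5 and PSME3.

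At the level of single transcripts, 68 were listed for the members and 52 of them averaged at least 10 FPKM. Of these 52, 5 fell and 2 rose (limma on all 6602 transcripts, of which 10% were lower and 10.1% higher). The 2 that rose were the transcripts of PSMD3 and PSME4, and those that fell belonged to PSMD5, PSMG1, PSMA6, PSMB3 and PSMA4. In PSMA4 the fall was in a minor transcript, at 21.4, 18.0 and 16.9 FPKM in siControl and 10.6, 9.21 and 10.5 FPKM in siChe-1 (log2 difference -0.81 ± 0.12, limma adjusted p 0.00863). In the authors' deposited table its log2 ratio was -0.99 with a q of 0.285. That transcript made up 6.19% of PSMA4 FPKM in siControl and 3.49% in siChe-1, and the main transcript, with 75.4 and 71.8%, was not called. In PSMG1 the more abundant transcript fell, at 58.2, 55.9 and 59.2 FPKM against 39.4, 38.8 and 34.6 FPKM, and the other had a log2 difference of -0.33 ± 0.11 (limma adjusted p 0.0897). By the q of the authors' deposited table, 14 member transcripts were lower and 1 higher, where 10.2% of all 18750 transcripts were lower and 8.05% higher.

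Against the spike-ins, most proteasome genes were lower after Che-1 silencing, as were most genes of the table. By the adjusted p of the authors' deposited table, 41 of the 45 members with a mean of at least 10 were lower and 0 higher (0 also at an unadjusted p under 0.05 and with edgeR), where 63.5% of 12591 genes were called lower and 0.0635% higher. The members' median log2 difference was -1.50, against -1.25 for all genes, and 39 of the 45 lay below that median of all genes. So did 3770 of the 6285 genes that averaged at least 10 FPKM. At a mean of at least 100, 41 members and 7475 of 10141 genes were called lower in the authors' deposited table. PSMD5 had 1041, 1624 and 1675 normalised reads in siControl and 330.3 and 263 in siChe-1, and the authors' log2 difference of -2.29 (adjusted p 9.2e-05 in the authors' deposited table) was the largest of the members. PSME3 (-2.06), PSMG1 (-1.90) and PSMA6 (-1.81) followed in that table, and PSMB5 was at -1.27 (adjusted p 0.0462).

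The 4 members not called in the authors' deposited table were PSMB8, PSMB10, PSMD3 and PSMG3. PSMB10 had 384, 790 and 555 normalised reads in siControl and 319 and 322 in siChe-1, and the authors' log2 difference in the deposited table was -0.85 (adjusted p 0.232). PSMD3 had 5809, 8978 and 8917 against 5151 and 3490 normalised reads (-0.87, adjusted p 0.0604 in the authors' deposited table). PSME4 was at -0.98 (adjusted p 0.0355 in the authors' deposited table), where its value relative to other genes was 0.35; both scales rest on libraries of the same cells and are not independent. In 44 of the 47 members both siChe-1 libraries lay below all siControl libraries. All 44 are among the 45 members with a mean of at least 10. Of all genes with recovered reads and such a mean, this held for 11161 of 12462 (89.6%). Each library has 1 spike-in factor that all its genes share, so that these p-values treat a shared error as if it belonged to each gene. edgeR on the recovered reads called 45 of 45 members lower (84.4% of all genes). Among the 6285 genes that averaged at least 10 FPKM, as 44 members do, it called 5894 lower. Not all of the 6285 had recovered reads. The 45 include PSMB8, whose reads are not read as its expression and whose groups overlapped. Leaving out 1 siControl library gave 42 to 45 members lower, where 8148 to 11637 of all genes were lower. Without siChe-1 replicate 2, which leaves 1 siChe-1 library, the members' median log2 difference was -1.39, against -1.12 for all genes.

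Of 10 genes that bind or help build the proteasome but carry other names, 3 fell and 1 rose relative to other genes (15.1% of all genes in each direction), with a median log2 difference of -0.04. In the authors' deposited table, 9 of the 10 were lower against the spike-ins and 0 higher, where 63.5% of all genes were lower and 0.0635% higher. TXNL1, a thioredoxin-like protein bound to the 19S particle, was at 102, 97.8 and 132 FPKM in siControl and at 44.3, 41.3 and 57.3 FPKM in siChe-1 (log2 difference -1.20 ± 0.16, limma adjusted p 0.00222), a larger fall than that of any member. ADRM1, a ubiquitin receptor of the base, was at 50.7, 61.4 and 51.5 FPKM against 36.9, 46.4 and 38.7 FPKM (-0.41 ± 0.12, limma adjusted p 0.0322). UCHL5, the deubiquitinase that ADRM1 binds, was at 60.5, 45.8 and 66.4 FPKM against 43.7, 35.9 and 42.9 FPKM (-0.47 ± 0.15, limma adjusted p 0.0455). UBE3C, a ubiquitin ligase of the proteasome, rose from 53.8 ± 2.77 to 72.6 ± 0.618 FPKM (SD, n = 3; log2 difference 0.43 ± 0.08, limma adjusted p 0.00671).

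Among the genes for ubiquitin supply and shuttling, the shuttle UBQLN4 fell from 33.4 ± 1.61 to 19.5 ± 0.878 FPKM (SD, n = 3; log2 difference -0.75 ± 0.07, limma adjusted p 0.000908). UBA6, a ubiquitin-activating enzyme, rose relative to other genes from 33.9 ± 1.21 to 40.7 ± 1.24 FPKM (SD, n = 3; log2 difference 0.26 ± 0.07, limma adjusted p 0.0285). It was not called by edgeR with TMM (0.11, adjusted p 0.513), and it was lower against the spike-ins in the authors' deposited table (-1.15, adjusted p 0.0159). Of 5 tested genes of the pathway by which NRF1 controls proteasome genes, 2 rose and 1 fell relative to other genes (15.1% of all genes in each direction). In the authors' deposited table, 7 of the 8 genes in this list were lower against the spike-ins and 0 higher (63.5% and 0.0635% of all genes). NFE2L1, which encodes NRF1, was at 116, 129 and 140 FPKM in siControl and at 149, 170 and 180 FPKM in siChe-1, with no overlap (log2 difference 0.37 ± 0.11, limma adjusted p 0.0410). It was not called by edgeR with TMM (0.26, adjusted p 0.0716), and the authors' deposited table put it lower against the spike-ins (-0.97, adjusted p 0.0353). Its partner MAFG rose from 13.3 ± 0.859 to 19.1 ± 0.180 FPKM (0.50 ± 0.08, limma adjusted p 0.00392). SEL1L, of the degradation machinery of the endoplasmic reticulum, fell by 0.39 on the log2 scale (limma adjusted p 0.0148).

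Of the interferon and antigen presentation list, IRF1 and B2M were the 2 genes with enough FPKM to test, and both rose relative to other genes. IRF1, a transcription factor that acts on immunoproteasome genes, was at 9.01, 8.63 and 7.99 FPKM in siControl and at 20.6, 23.8 and 23.9 FPKM in siChe-1 (log2 difference 1.31 ± 0.09, limma adjusted p 0.000376). B2M, the light chain of MHC class I, rose from 2637 ± 352 to 4321 ± 560.3 FPKM (SD, n = 3; 0.71 ± 0.14, limma adjusted p 0.0102). Against the spike-ins, the authors' deposited table gave a log2 difference of 0.05 for IRF1 (adjusted p 0.910) and -0.63 for B2M (adjusted p 0.179), so that neither rose there.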

How the data were processed

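RNA was measured in 6 libraries of KMS-27 cells, 3 per group, grouped by the sample titles. Files of 3 kinds were used. The raw counts of reads per spike-in are deposited for each library, per the file headers. A second table, of the authors' own comparison, holds per gene a signal (reads divided by spike-in size factors and averaged per group), a ratio (fold change), its log2, a p-value and an adjusted p, per the file headers. The last lists the authors' FPKM, 3 values per group without replicate numbers, with the authors' log2 ratio, p-value and q-value per transcript, per the file headers. Per the submitters' processing notes, the build was hg19 and the tools were TopHat, Cufflinks, Cuffdiff, HTSeq and DESeq2.

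Whole reads behind the second table were recovered for 16315 of 16444 genes (99.2%, relative tolerance 8e-15). They match siControl 1 to 3 and siChe-1 1 and 2 alone, and the 129 other genes hold 17.8% of siControl normalised reads. The planned per-library unit was kept as an alternative, and the authors' adjusted p was counted at a mean of at least 10. FPKM was summed by gene over assembled chromosomes, filtered at a mean of 10, rescaled by the median of ratios and tested as log2(FPKM + 1) with limma 3.58.1. This scale shrinks the differences of genes with low FPKM. Recovered reads were tested with edgeR 4.0.16 (quasi-likelihood) and DESeq2 1.42.0 in R 4.3.3, and the within-library ratio with scipy 1.17.1. All tests were two-sided, with Benjamini-Hochberg adjustment over all features and a threshold of 0.05. The tests were tried on simulated data. Nothing in the labels says that libraries came from separate cultures, so p-values measure only the spread between libraries, which may be technical.

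The members and lists were chosen with earlier results of these data known. Genes are named by a rule: all called members, PSMB5 to PSMB10, PSMD14, in each class the most abundant member and those with the largest and smallest difference, and of related lists POMP, ADRM1, NFE2L1 and called genes. A result of the list for ubiquitin supply, and that list's counts, are not reported here. Alternatives were other pseudocounts, filters, scalings, variance models, transcript choices, tests, a replicate block and leaving out each library.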

Additional observations from a re-analysis of the deposited data

How the results depend on the processing

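The count of 8 lower and 2 higher members relative to other genes was within 1.5 times under a pseudocount of 0.1, a minimum FPKM of 1, limma without a trend, the most abundant transcript (2 higher, 7 lower) and added haplotype transcripts. It moved to 5 lower with upper-quartile scaling, to 1 higher without a filter or with the deposited scaling, and to 13 lower and 1 higher with edgeR and TMM on recovered reads and 17 and 1 with DESeq2. The calls over all 6285 genes moved with the scaling too, to 713 lower and 1221 higher with upper-quartile scaling and to 1279 and 592 with the deposited scaling. Leaving out 1 library gave 3 to 6 lower and 1 to 3 higher; the lowest counts were without siControl list position c and siChe-1 list position c, where each group of 2 is assumed to vary like the other. With replicate number as a replicate block, TMM gave 13 lower and 1 higher. Against the spike-ins, the replicate block left 0 of 45 members lower by edgeR (13 at an unadjusted p under 0.05, and 58 of all genes called). Without the block, edgeR called 45 and DESeq2 44. Leaving out 1 siControl library gave 42 to 45 members lower, with 8148 to 11637 of all genes lower. Leaving out 1 siChe-1 library leaves 1 in that group. The members' median log2 difference was then -1.60 without replicate 1 and -1.39 without replicate 2. Deviations of same-numbered libraries correlated by 0.179 and 0.193 over genes, with 2 pairs only, so the numbers are not taken to pair the libraries. Transcripts counted 5 lower and 2 higher, and moved to 8 and 0 with deposited scaling, to 1 higher at a minimum FPKM of 1, and to 2 to 5 lower and 0 to 1 higher without 1 library. The ratio of PSMB10 to PSMB7 stayed between 0.59 and 0.87 in log2 without 1 library and was 0.75 on recovered reads. Signs turned for PSMC2 (0.0074 with the most abundant transcript), UBB (-0.025 with edgeR and TMM, -0.034 with DESeq2), PSMB8 (1.19 with the spike-in replicate block), IRF1 (-0.057 and -0.071 without siControl replicate 1 or siChe-1 replicate 1 against the spike-ins) and TAPBP (-0.11 and -0.20 likewise); none of these values passed its threshold, and the cause was not tested. PSMB8, PSMB9 and PSMA8 had at most 24 reads in a library.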
